A study of Mus musculus with 7 samples.

Results

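The 10 genes described here are expressed by, or act on, the cells of blood vessels. They were chosen by name for their roles, and each has 1 row among the 48440 genes of the count table. *Pecam1*, *Cdh5*, *Kdr*, *Tek*, *Flt1* and *Cldn5* are endothelial genes, *Pdgfrb* and *Rgs5* are pericyte genes, *Col4a1* encodes a collagen of the vascular basement membrane, and *Vegfa* encodes the growth factor VEGF-A. Endothelial cells line a vessel and pericytes wrap it, and both rest on a shared basement membrane. VEGF-A signals to the endothelium through Kdr, while Flt1 binds the same ligand and limits its action. Angiopoietins act through Tek, and PDGF-B from endothelial cells recruits pericytes through Pdgfrb. The embryonic mouse retina holds no vessels of its own: hyaloid vessels lie in the vitreous along its inner surface, the choroid lies outside it, and the retinal plexus grows in from the optic nerve head from around birth. *Kdr* is also expressed by retinal progenitors.

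RNA was sequenced from pools of mouse retinas taken at embryonic day 16 (E16), as 7 stranded mRNA libraries. All 3 genotypes carried Cre recombinase: 1 library had the genotype Chx10Cre (WT), 3 were Chx10-Cre;Ptbp1lox/WT (Het1 to Het3) and 3 were Chx10-Cre;Ptbp1lox/lox (KO1 to KO3). The *Chx10* promoter drives Cre in retinal progenitors and vessel cells are not its target. WT was a pool of 6 retinas, Het1 and Het2 were pools of 5 and Het3 of 6, and KO1 and KO2 were pools of 4 and KO3 of 6. WT is 1 library without a replicate: no error can be given for it, and it was not tested against the other genotypes.

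The WT library held 148690857 counts on genes. Het1, Het2 and Het3 held 171117305, 120593979 and 152970301 counts, and KO1, KO2 and KO3 held 133765170, 131005766 and 129073579 counts. Values below are in CPM: a gene's counts divided by the library's TMM-adjusted size, which also allows for composition. KO was compared with Het by edgeR's quasi-likelihood test over 20019 genes. A gene was called at a Benjamini-Hochberg adjusted p below 0.05 together with an absolute log2 fold change above 0.263, the log2 of 1.2. For single values compared between 3 Het and 3 KO libraries, the smallest p of an exact permutation test is 0.1.

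The labelled tissue was checked against 14 neural retina markers, and 14 of 14 were above 1 CPM in every library. Their summed expression ran from 3625 CPM in Het1 to 3777 CPM in KO1. Several libraries stood apart in markers of neighbouring tissues. Het1 held 358 CPM of 17 skeletal muscle markers, against 10.6 to 13.9 CPM in the other libraries, with *Myh3* the most abundant. It also held 615 CPM of 14 periocular mesenchyme markers (123 to 167 CPM elsewhere, *Col6a1* the most abundant) and 535 CPM of 8 pigmented cell markers (21.4 to 65.3 CPM elsewhere, *Pmel* the most abundant). KO1 and KO2 stood apart in the opposite direction, in blood and lens. The 12 erythroid markers, led by *Hbb-bs*, summed to 340 CPM in WT, to 290, 190 and 532 CPM across Het1, Het2 and Het3, and to 37.5, 25.0 and 299 CPM across KO1, KO2 and KO3. The 9 lens markers, led by *Cryaa*, summed to 14.3 CPM in WT, to 25.2, 60.7 and 82.8 CPM across Het1, Het2 and Het3, and to 1.91, 5.05 and 53.7 CPM across KO1, KO2 and KO3. For both lists KO3 lay within the Het range, and KO1 and KO2 lay below it. In KO1 3 of the erythroid markers were at 0 counts, in KO2 1, in KO3 2 and in Het3 1, and 1 lens marker, *Lim2*, was at 0 in all libraries. In bulk samples fewer cells of a type and less RNA per cell cannot be told apart.

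*Ptbp1*, the targeted gene, was measured first as a check of the genotype labels. WT held 381 CPM, with 210, 219 and 234 CPM in the Het libraries, and 27.9, 6.04 and 46.9 CPM in the KO libraries. The order followed the labels, with KO3 the highest of the KO libraries and KO2 the lowest. It fell by 3.04 on the log2 scale (SE 0.635, edgeR adjusted p = 0.0316). Each Het and KO library was also left out once, in 6 leave-one-out fits, over which the log2 fold change ran from -3.70 to -2.56, and the edgeR adjusted p passed the threshold without KO2 (0.0138) or KO3 (0.0229) but not without KO1 (0.0744), Het1 (0.0519), Het2 (0.0964) or Het3 (0.0934).

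Of the 10 vascular genes, 10 passed the filter on low counts and 3 were called between Het and KO: *Kdr* and *Vegfa* rose and *Pdgfrb* fell. Across all genes tested, 7.22% were called, 4.01% higher and 3.21% lower in KO. Het and KO did not overlap in 4 of the 10, against 36.3% of all genes tested, so separation of the groups was about as frequent among the vascular genes as elsewhere. The median log2 fold change over the 10 was -0.78, beside 0.00 over all genes, and 7 of the 10 values were negative. KO3 decided much of the count: without it 8 of the 10 were called, 2 higher and 6 lower, beside 8.39% of all genes in the same fit. *Vegfa* alone was called without Het2 and without Het3, beside 1.93% and 2.49% of all genes. Of the 10, 2 were called without KO1 and 2 without KO2, beside 6.12% and 3.06% of all genes. Leaving out Het1, the library with muscle and pigmented cell markers, left 3 called, beside 6.23%. DESeq2 called 4 of the 10, beside 11.6% of the genes to which it gave an adjusted p.

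**Figure D1:**
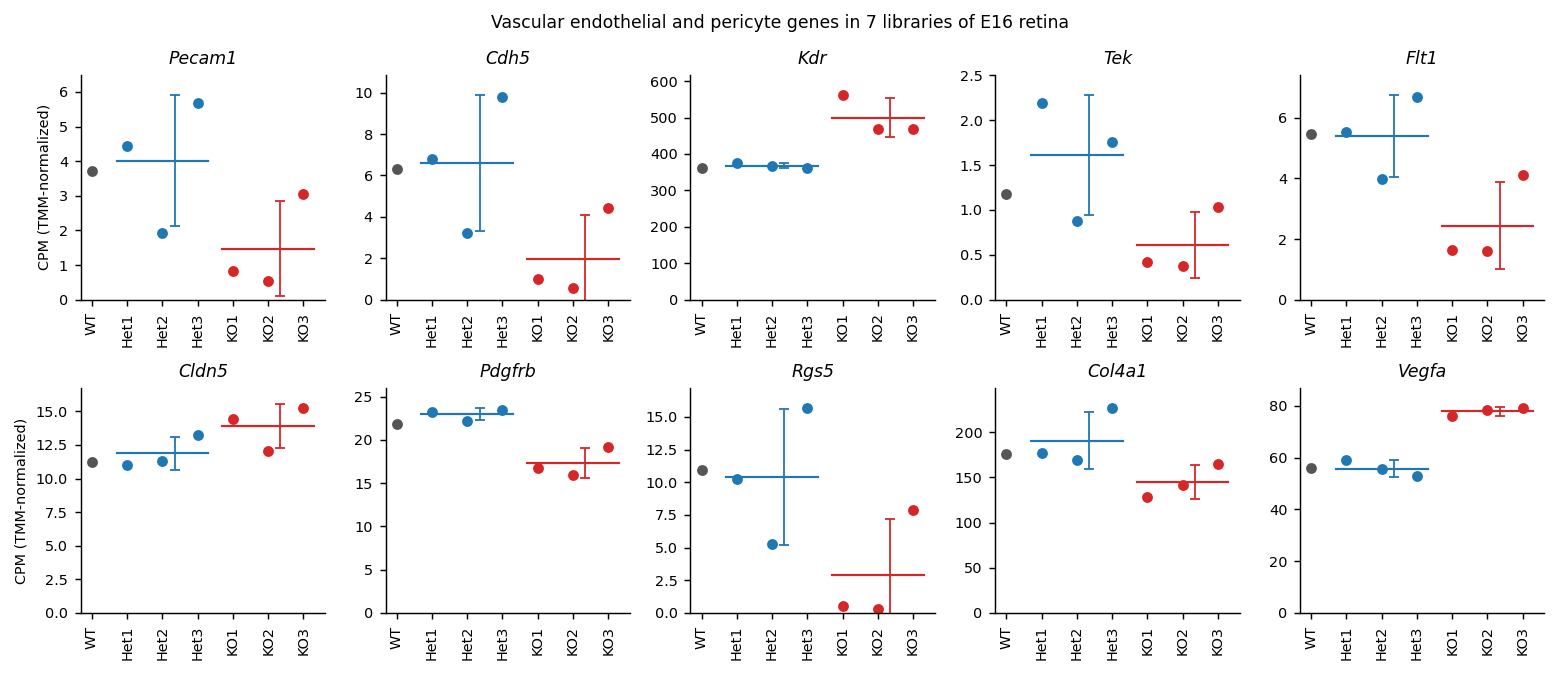
CPM after TMM normalization of the 10 vascular genes in each library, with points for libraries, horizontal lines for group means and bars for ±1 SD (n = 3; bars are cut at 0 for *Cdh5* and *Rgs5*, and WT has 1 library). *Kdr* and *Vegfa* lie higher in the 3 KO libraries and *Pdgfrb* and *Col4a1* lower, while *Pecam1*, *Cdh5*, *Tek*, *Flt1* and *Rgs5* are low in KO1 and KO2 but not in KO3.

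*Pecam1* (ENSMUSG00000020717.19; GRCm38 chromosome 11, 106654217 to 106750628), an adhesion molecule of endothelial contacts, was measured at 3.73 CPM in WT, 4.43, 1.94 and 5.67 CPM across Het1, Het2 and Het3, and 0.823, 0.540 and 3.05 CPM across KO1, KO2 and KO3. KO1 and KO2 lay below every other library, and KO3 lay within the Het range. *Cdh5* (ENSMUSG00000031871.9; chromosome 8, 104101625 to 104144511), the cadherin of endothelial adherens junctions, was measured at 6.29 CPM in WT, 6.80, 3.21 and 9.77 CPM in Het, and 0.989, 0.555 and 4.41 CPM in KO. Again KO1 and KO2 were the lowest and KO3 exceeded Het2. As a percentage of the Het mean, the mean over KO libraries was 36.6% for *Pecam1* and 30.1% for *Cdh5*. The log2 fold changes of -1.45 (SE 0.699, edgeR adjusted p = 0.218) for *Pecam1* and -1.73 (SE 0.795, edgeR adjusted p = 0.199) for *Cdh5* were not called. Without KO3 both were called, at -2.56 (edgeR adjusted p = 0.0339) and -3.09 (edgeR adjusted p = 0.0267), and over the other leave-one-out fits the fold changes ran up to -1.06 and -1.29. An antisense gene overlaps *Cdh5* in the annotation, and the strand setting of the counting is not given in the sources used here.

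*Tek* (ENSMUSG00000006386.15; chromosome 4, 94739289 to 94874976), the angiopoietin receptor, was measured at 1.18 CPM in WT, 2.20, 0.881 and 1.76 CPM in Het, and 0.415, 0.380 and 1.04 CPM in KO. *Flt1* (ENSMUSG00000029648.13; chromosome 5, 147561604 to 147726011), the decoy receptor of VEGF-A, was measured at 5.46 CPM in WT, 5.54, 3.995 and 6.68 CPM in Het, and 1.63, 1.60 and 4.10 CPM in KO. In both genes KO1 and KO2 were the lowest libraries and KO3 slightly exceeded Het2, so the groups overlapped at that one point. The log2 fold change was -1.40 for *Tek* (SE 0.491, edgeR adjusted p = 0.115) and -1.15 for *Flt1* (SE 0.406, edgeR adjusted p = 0.118). *Tek* was called by DESeq2 (adjusted p = 0.00940). Without KO3 the edgeR fit called both, with -2.02 (adjusted p = 0.0367) for *Tek* and -1.74 (adjusted p = 0.0151) for *Flt1*.

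*Pecam1*, *Cdh5*, *Tek* and *Flt1* moved together across libraries. Together they made up 16.7 CPM in WT, 19.0, 10.02 and 23.9 CPM in Het, and 3.86, 3.07 and 12.6 CPM in KO, an exact two-sided permutation p of 0.2; this sum was put together after its values were seen. Pearson's r between log2 values of *Pecam1* and *Cdh5* was 0.997 over the 7 libraries, which differ in genotype. Their ratios were not constant: *Flt1* counts were 0.684 to 1.25 times those of *Cdh5* in the Het libraries, 1.65 times in KO1 and 2.88 times in KO2, and 0.930 times in KO3. *Tek* counts were 0.180 to 0.323 times those of *Cdh5* in Het, 0.420 and 0.685 times in KO1 and KO2, and 0.235 times in KO3. *Cdh5* was thus lower than *Flt1* and *Tek*, relative to Het, in the 2 libraries where all were low.

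*Kdr* (ENSMUSG00000062960.10; chromosome 5, 75932827 to 75978458) behaved differently from the other endothelial receptors. It was measured at 361 CPM in WT, 376, 366 and 363 CPM in Het, and 562, 469 and 468 CPM in KO. Every KO library exceeded every Het library and WT, and KO1 was the highest. It rose by 0.44 on the log2 scale (SE 0.0748, edgeR adjusted p = 0.0186). The log2 fold change ran from 0.35 to 0.49 with each library left out, and the call was lost without Het2 (edgeR adjusted p = 0.0837) or Het3 (edgeR adjusted p = 0.0746). *Cldn5* (ENSMUSG00000041378.1; chromosome 16, 18776847 to 18778262), the tight junction claudin of barrier endothelium, was measured at 11.3 CPM in WT, 11.04, 11.3 and 13.2 CPM in Het, and 14.4, 12.1 and 15.2 CPM in KO. KO2 lay within the Het range, and KO1 and KO3 lay above it. Its log2 fold change of 0.23 (SE 0.111, edgeR adjusted p = 0.217) was not called in the fit described above or in any of 14 alternatives.

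The 6 endothelial genes summed to 389 CPM in WT, 406, 387 and 400 CPM in Het, and 580, 484 and 496 CPM in KO. The sums did not overlap between Het and KO (exact two-sided permutation p = 0.1, the smallest possible), but *Kdr* made up 90.7% to 96.9% of them in single libraries. Without *Kdr* the other 5 summed to 30.0, 21.3 and 37.1 CPM in Het and 18.3, 15.2 and 27.8 CPM in KO, which overlapped (exact two-sided permutation p = 0.2). The direction of the endothelial sum was therefore the direction of *Kdr*, and the sum without it was added after the values were seen.

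*Pdgfrb* (ENSMUSG00000024620.11; chromosome 18, 61045150 to 61085061), the pericyte receptor for PDGF-B, was measured at 21.8 CPM in WT, 23.2, 22.2 and 23.5 CPM in Het, and 16.8, 15.9 and 19.2 CPM in KO. The 3 KO libraries lay below WT and every Het library. It fell by 0.41 on the log2 scale (SE 0.0765, edgeR adjusted p = 0.0233). The call was lost without Het2, Het3, KO1 or KO2, with edgeR adjusted p from 0.0551 to 0.0860, while the log2 fold change ran from -0.49 to -0.35. *Rgs5* (ENSMUSG00000026678.10; chromosome 1, 169655501 to 169695813), a regulator of G protein signalling that is abundant in pericytes, was measured at 10.9 CPM in WT, 10.3, 5.25 and 15.7 CPM in Het, and 0.551, 0.274 and 7.84 CPM in KO. KO1 and KO2 rested on 73 and 36 counts, while KO3 held 1044 counts and lay within the Het range. The log2 fold change of -1.85 (SE 1.16, edgeR adjusted p = 0.329) was not called, and without KO3 it was -4.65 (SE 0.612, edgeR adjusted p = 0.0147) and called. *Rgs5* thus had the largest spread of the 10 among KO libraries, with an SD of 2.55 on the log2 scale.

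Over the 7 libraries, Pearson's r of log2 values with *Cdh5* was 0.933 for *Pdgfrb* and 0.991 for *Rgs5*. Counts of *Rgs5* were 1.74 times those of *Cdh5* in WT, 1.51, 1.64 and 1.60 times in Het, 0.557 and 0.493 times in KO1 and KO2, and 1.78 times in KO3. As a share of both genes, *Rgs5* held 60.2% to 64.0% of the counts in WT, Het and KO3, 35.8% in KO1 (95% Wilson interval 29.5% to 42.6%) and 33.0% in KO2 (95% Wilson interval 24.9% to 42.3%). These intervals cover counting error only and not the spread between pools. The difference in this share between libraries was not tested. The ratio of the 2 pericyte genes to the 6 endothelial genes was 0.0841 in WT, 0.0825, 0.0709 and 0.0979 in Het and 0.0298, 0.0334 and 0.0546 in KO, an exact two-sided permutation p of 0.1, the smallest possible. Its denominator is mostly *Kdr*, which was higher in KO. The 2 pericyte genes summed to 33.5, 27.5 and 39.1 CPM in Het and 17.3, 16.2 and 27.1 CPM in KO. The 5 endothelial genes without *Kdr* summed to 30.0, 21.3 and 37.1 CPM in Het and 18.3, 15.2 and 27.8 CPM in KO. Both sums were thus lower on average in KO, and their ratio was not tested.

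*Col4a1* (ENSMUSG00000031502.11; chromosome 8, 11198423 to 11312826) encodes a chain of type IV collagen, the network of basement membranes. It was measured at 176 CPM in WT, 177, 169 and 226 CPM in Het, and 128, 141 and 165 CPM in KO. The KO libraries lay below the Het libraries, KO3 just below Het2, and Het3 was the highest. The log2 fold change was -0.40 (SE 0.134, edgeR adjusted p = 0.106), which was not called. It was -0.25 without Het3 and -0.50 without KO3, the ends of its leave-one-out range, and was called in none of these 6 fits. *Col4a2*, its neighbour on the opposite strand and the other chain of the same collagen, was measured at 178 CPM in WT, 183, 178 and 228 CPM in Het, and 134, 145 and 147 CPM in KO. It fell by 0.47 (SE 0.0986, edgeR adjusted p = 0.0324) and lost the call without Het2, KO1, KO2 or KO3. Counts of *Col4a1* were 0.951 to 0.993 times those of *Col4a2* in WT, Het, KO1 and KO2, and 1.12 times in KO3, where *Col4a1* held 52.9% of the counts of both (95% Wilson interval 52.4% to 53.3%). This interval covers counting error only and not the spread between pools, and the difference in KO3 was not tested.

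The start regions of these 2 collagen genes are shown because the genes sit head to head and both had negative log2 fold changes. In GENCODE M21 they overlap by 22 bases, so the assignment of reads there is uncertain if strand was not used. RefSeq promoter windows of GRCm38.p6 matched 7 of the 10 vascular genes; *Pecam1*, *Cdh5* and *Pdgfrb* had no entry. The *Col4a1* window is chr8:11312777-11313076 on the minus strand and the *Col4a2* window is chr8:11312555-11312854 on the plus strand. Capitals mark the 78 bases both windows cover, chr8:11312777-11312854, read 5′ to 3′ on each gene's own strand.
Col4a1: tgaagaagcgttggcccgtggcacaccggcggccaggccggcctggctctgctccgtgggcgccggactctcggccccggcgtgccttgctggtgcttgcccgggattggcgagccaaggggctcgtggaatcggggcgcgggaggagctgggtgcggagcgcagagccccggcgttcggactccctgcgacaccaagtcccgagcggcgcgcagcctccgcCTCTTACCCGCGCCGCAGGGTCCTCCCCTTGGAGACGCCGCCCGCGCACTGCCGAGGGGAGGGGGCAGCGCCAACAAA
Col4a2: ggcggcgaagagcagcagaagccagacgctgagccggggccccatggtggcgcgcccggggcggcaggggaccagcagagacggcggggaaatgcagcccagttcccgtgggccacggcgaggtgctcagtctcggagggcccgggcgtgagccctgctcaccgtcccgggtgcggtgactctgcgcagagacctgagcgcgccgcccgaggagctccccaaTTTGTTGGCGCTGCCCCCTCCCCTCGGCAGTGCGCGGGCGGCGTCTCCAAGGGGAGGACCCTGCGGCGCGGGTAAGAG
G and C made up 74.0% of the *Col4a1* window and 73.7% of the *Col4a2* window. Of 5 motifs searched on both strands, GGGCGG occurred 1 time in the *Col4a1* window and 3 times in the *Col4a2* window, 1 of them in the shared bases, and in 35.7% of 32851 promoter windows. GGAA occurred 1 and 2 times, and in 96.0% of all windows. AGGAAG, which contains GGAA, occurred in neither window and in 35.4% of all windows. ACGTG and TATAAA also occurred in neither, and in 19.6% and 13.6% of all windows. A match is a description of the letters alone.

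*Vegfa* (ENSMUSG00000023951.16; chromosome 17, 46016993 to 46032369), the ligand of Kdr and Flt1, was measured at 55.9 CPM in WT, 59.0, 55.6 and 52.8 CPM in Het, and 76.0, 78.6 and 79.1 CPM in KO. The 3 KO libraries were close to each other and lay above every Het library and WT. It rose by 0.48 on the log2 scale (SE 0.0447, edgeR adjusted p = 0.00442), a KO mean of 77.9 ± 1.65 CPM (SD, n = 3) against 55.8 ± 3.13 CPM (SD, n = 3) in Het. *Vegfa* was called under each of 14 alternatives, the 6 that leave out a library included, with log2 fold changes from 0.44 to 0.52. Over the 7 libraries, Pearson's r of log2 values was 0.905 between *Vegfa* and *Kdr*, -0.741 between *Vegfa* and *Cdh5*, and -0.758 between *Kdr* and *Cdh5*; the libraries fall into genotype groups, which these values share.

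Levels of different genes were compared per kb of exon, within the Het libraries. *Kdr* was the highest at 40.2 to 41.7 CPM per kb, followed by *Col4a1* at 22.6 to 30.3, *Vegfa* at 12.3 to 13.8, *Cldn5* at 7.80 to 9.35 and *Pdgfrb* at 4.05 to 4.29 CPM per kb. These 5 did not overlap. *Rgs5* at 1.16 to 3.44 CPM per kb and *Cdh5* at 0.763 to 2.33 CPM per kb overlapped, as did *Pecam1* at 0.311 to 0.910, *Flt1* at 0.296 to 0.495 and *Tek* at 0.187 to 0.466 CPM per kb. *Pecam1* also reached the lower *Cdh5* values, so the order of the lower genes is not resolved beyond their spread. *Rgs5*, *Cdh5*, *Pecam1*, *Flt1* and *Tek*, the 5 of lowest expression per kb, were low in KO1 and KO2 but not in KO3. Low values there were not limited to these 5. *Pdgfrb* (16.8 and 15.9 CPM) and *Col4a1* (128 and 141 CPM), higher per kb, were also lowest in KO1 and KO2, by smaller margins.

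Of 34 other endothelial genes, 34 were tested and 0 were called by edgeR (7 at an unadjusted p below 0.05; DESeq2 called 4, each lower in KO). In either direction, edgeR called 7.22% of all genes tested and DESeq2 11.6% of the genes to which it gave an adjusted p. Their median log2 fold change was -1.49. In 28 of the 34 the lowest library was KO1 or KO2, in 29 KO3 exceeded both KO1 and KO2, and in 26 Het3 was the highest. The shares of all genes with these orders are not given here, so the counts are a description of the list. Without KO3, 20 of 33 were called, each lower in KO, beside 8.39% of all genes in either direction, and the median was -2.69. The 3 most abundant had small differences: *Dll4*, a Notch ligand that neurogenic retinal progenitors also express, was measured at 46.9 to 50.0 CPM in Het and 48.5 to 50.2 CPM in KO, with a log2 fold change of 0.02. *S1pr1*, a sphingosine phosphate receptor, had -0.17 and *Arhgef15* had 0.11, and neither was called. The part of KO3 and of Het3 in these values was not tested beyond leaving each out.

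Genes were ranked by Pearson's r of log2(CPM + 1) with the mean of the 6 endothelial genes, among 13744 genes of at least 1 CPM. The 6 did not vary alike: r of log2 CPM with *Pecam1*, *Cdh5*, *Tek* and *Flt1* was -0.733, -0.758, -0.767 and -0.847 for *Kdr* and -0.153, -0.178, -0.299 and -0.295 for *Cldn5*, so the mean mainly follows the other 4. The 10 highest were *Clec14a* (0.994), *Cd93* (0.993), *Adgrf5* (0.989), *Alas2* (0.989), *Eng* (0.986), *Ptprb* (0.985), *Tie1* (0.985), *C130074G19Rik* (0.985), *Acvrl1* (0.983) and *Trim21* (0.982), over 7 libraries. Without Het1 the values were 0.980 to 0.994. *Clec14a*, *Eng*, *Ptprb* and *Tie1* were in the endothelial list, and *Alas2*, the first enzyme of heme synthesis in erythroid cells, was in the erythroid list. *Cd93* was measured at 7.30 CPM in WT, 7.74, 3.11 and 11.2 CPM in Het, and 0.626, 0.175 and 5.14 CPM in KO. *Trim21* moved over a narrow range only, from 2.35 to 3.07 CPM.

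Among 10 barrier and transport genes 0 were called by edgeR (3 at an unadjusted p below 0.05; DESeq2 called 1), with a median of -0.28. The median was -0.14 without Het1, -0.10 without KO1, -0.09 without KO2 and -0.42 without KO3, where 2 were called lower. *Slc2a1*, the glucose transporter, was the most abundant, at 725 to 758 CPM in Het and 729 to 775 CPM in KO. Of 12 other pericyte genes, 3 were called, 1 higher and 2 lower (DESeq2 called 2 higher and 2 lower). Across all genes, edgeR called 4.01% higher and 3.21% lower, and DESeq2 called 11.6% in either direction. *Heyl*, a Notch target, rose by 0.48 (edgeR adjusted p = 0.0272), from 72.2 to 83.4 CPM in Het to 95.4 to 122 CPM in KO, and was called in 3 of 6 leave-one-out fits, not without Het2, Het3 or KO2 (edgeR adjusted p up to 0.108). *Notch3*, a Notch receptor, fell by 0.30 (edgeR adjusted p = 0.00938) and was called in 6 of 6 leave-one-out fits. It was measured at 77.5 to 83.7 CPM in Het, and 62.6, 66.2 and 65.8 CPM across KO1, KO2 and KO3. It thus lacked the gap between KO3 and the other KO libraries seen for *Rgs5*. Which cells the *Notch3* and *Heyl* counts came from was not tested. *Vtn*, which encodes vitronectin, fell by 0.52 (edgeR adjusted p = 0.0344) but was called in 1 of the 6. Without Het1 the median of this list moved from -0.69 to -0.27, and 2 genes were called higher and 1 lower. It was -0.41 without Het3, with 0 called higher and 1 lower, and -1.08 without KO3, with 1 called higher and 4 lower. Without Het2 or KO2, 0 were called higher and 1 lower. The most abundant gene of the list, *Ndufa4l2*, had a log2 fold change of 0.28 and was not called.

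The 6 vascular smooth muscle genes were all highest in Het1, the library with skeletal muscle and mesenchyme markers. *Mylk*, a myosin light chain kinase, fell by 0.31 (edgeR adjusted p = 0.0120), and its call was lost without Het1 or KO2. *Acta2*, smooth muscle actin, was measured at 20.2 CPM in Het1 and at most 2.39 CPM in any other library. The median of the list was -1.10 with Het1 and -0.50 without it, where 0 of 6 were called by edgeR. DESeq2 called 3 of the 6 lower, beside 11.6% of all genes in either direction. The part of muscle and mesenchyme in Het1 was not tested further.

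The 13 other basement membrane genes all had negative log2 fold changes, with a median of -0.48. Of these, edgeR called 3 lower in KO, beside 3.21% of all genes: *Col4a2*, *Nid1* and *Agrn*. DESeq2 called 5 lower, beside 11.6% of the genes to which it gave an adjusted p, in either direction. With a library left out, edgeR called 1 without KO2, 2 without Het2, Het3 or KO1, 3 without Het1 and 5 without KO3, and the median ran from -0.55 to -0.35. Over the same fits 1.93% (without Het2) to 8.39% (without KO3) of all genes were called in either direction. *Nid1*, nidogen, which links laminin to type IV collagen, was measured at 13.5 CPM in WT, 20.6, 16.4 and 27.1 CPM in Het, and 7.43, 7.94 and 11.1 CPM in KO. It fell by 1.27 (SE 0.223, edgeR adjusted p = 0.0196), the largest fall of the 3, and its call was lost without Het3 or KO2. *Agrn*, agrin, fell by 0.51 (edgeR adjusted p = 0.0137), with 349 to 413 CPM in Het and 247 to 281 CPM in KO, and lost its call without Het2. KO3 was the highest KO library for *Nid1* and the lowest of all libraries for *Agrn*, at 247 CPM. *Sparc* and *Fn1*, the other abundant genes of the list, were not called, at -0.38 and -0.03.

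Of 11 other VEGF, angiopoietin and PDGF ligands and receptors 0 were called by edgeR (3 at an unadjusted p below 0.05; DESeq2 called 1 lower), with a median of 0.00. *Vegfb* was the most abundant and had a log2 fold change of 0.00, while *Nrp1* and *Nrp2*, coreceptors for VEGF, had -0.10 and 0.15. Het and KO did not overlap in 3 of the 11, beside 36.3% of all genes: *Nrp2*, and *Pgf* and *Flt4*, with log2 fold changes of 0.29 and -1.28, which were named after their values were seen. In the leave-one-out fits, 1 of the 11 was called higher without Het1 and 1 lower without KO3. Of 8 Norrin pathway genes 0 were called by edgeR (1 at an unadjusted p below 0.05; DESeq2 called 1 higher), with a median of 0.02, and *Lrp5* was the most abundant. Here too 1 was called higher without Het1 and 1 lower without KO3. Of 15 hypoxia genes, which include targets of the hypoxia-inducible factors, edgeR called 4 higher and 0 lower, beside 4.01% and 3.21% of all genes, with a median of 0.15. DESeq2 called 6 higher and 1 lower. Beside its counts for this list and the 2 before it, DESeq2 called 11.6% of the genes with an adjusted p, in either direction. *Ddit4* rose by 0.79 (edgeR adjusted p = 0.000640), from 54.2 to 56.5 CPM in Het to 93.0 to 101 CPM in KO, and kept its call in 6 of 6 leave-one-out fits. *P4ha1*, a collagen prolyl hydroxylase, rose by 0.27, *Ndrg1* by 0.37 and *Ankrd37* by 0.34, and these were called in 2, 2 and 0 of the 6. *Hif1a*, the most abundant of the list, had a log2 fold change of 0.15 and was not called. With each library left out in turn, 1 to 3 of the 15 were called higher and 0 lower, with 1 called without Het2 and 2 without Het1. Of all genes, 1.93% to 8.39% were called in these fits, in either direction.

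Markers of other cell types are given beside the vascular genes because they vary across the same libraries. Of 10 erythroid markers tested 0 were called by edgeR (4 at an unadjusted p below 0.05; DESeq2 called 3 lower), with a median of -1.61, and without KO3 9 of 10 were called lower with a median of -3.47. *Hba-a1* and *Hba-a2* are near-identical copies, so the split of reads between them is uncertain. The macrophage and microglia list differed within itself. Its sum was 63.3 CPM in WT, 60.2, 58.0 and 87.3 CPM in Het and 76.0, 103 and 101 CPM in KO, and *Csf1r* was the most abundant. *Cx3cr1* and *Ptprc* rose by 0.71 and 0.70 (edgeR adjusted p = 0.0429 and 0.0386), and they were called in 1 and 0 of the 6 leave-one-out fits. edgeR called 2 of the 12 higher, beside 4.01% of all genes, and DESeq2 9, beside 11.6% of all genes in either direction. Without KO3 edgeR called 0 of the 12 higher and 2 lower, beside 8.39% of all genes in either direction. *Mrc1*, chosen after its values were seen, marks perivascular and hyaloid macrophages and was measured at 3.22 CPM in WT, 2.10, 2.52 and 6.17 CPM in Het, and 0.355, 0.403 and 6.18 CPM in KO. *Lyve1*, chosen likewise, was measured at 4.33 CPM in WT, 2.60, 3.34 and 6.93 CPM in Het, and 0.506, 0.365 and 5.66 CPM in KO. Both were lowest in KO1 and KO2, as were *Pecam1*, *Cdh5* and *Rgs5*, whereas *Csf1r* was measured at 22.9 CPM in KO1 and 28.8 CPM in KO2, above the Het libraries. Of 4 retinal astrocyte markers, *Gfap* rose by 1.43 (edgeR adjusted p = 0.0189), and its call was lost without Het2, Het3 or KO2. *Pax2*, the most abundant, had 0.00. In the lists high in Het1, edgeR called 0 of 16 skeletal muscle markers (11 at an unadjusted p below 0.05; DESeq2 called 1), 0 of 14 mesenchyme markers (1; DESeq2 called 1) and 0 of 7 pigmented cell markers (3; DESeq2 called 0). Their medians were -4.19, -2.20 and -2.52, and 0.07, -0.09 and -0.44 without Het1, where 1 muscle marker was called higher. Without KO3, 1 pigmented cell marker was called lower. Of 8 lens markers edgeR called 0 (1 at an unadjusted p below 0.05; DESeq2 called 1), with a median of -0.53, and without KO3 4 were called lower with a median of -2.71. The lens median was -0.09 without KO1 and -0.23 without KO2. Beside the erythroid, pigmented cell and lens calls without KO3, that fit called 8.39% of all genes in either direction. Of the neural retina markers, *Neurod1* rose by 0.32 on the log2 scale (edgeR adjusted p = 0.00558) and *Isl1* fell by 0.68 (edgeR adjusted p = 0.00209), and both were called in 6 of 6 leave-one-out fits. *Tfap2a* rose by 0.46 (edgeR adjusted p = 0.0319) and was called in 2 of the 6, not without Het2, Het3, KO1 or KO2.

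**Figure D2:**
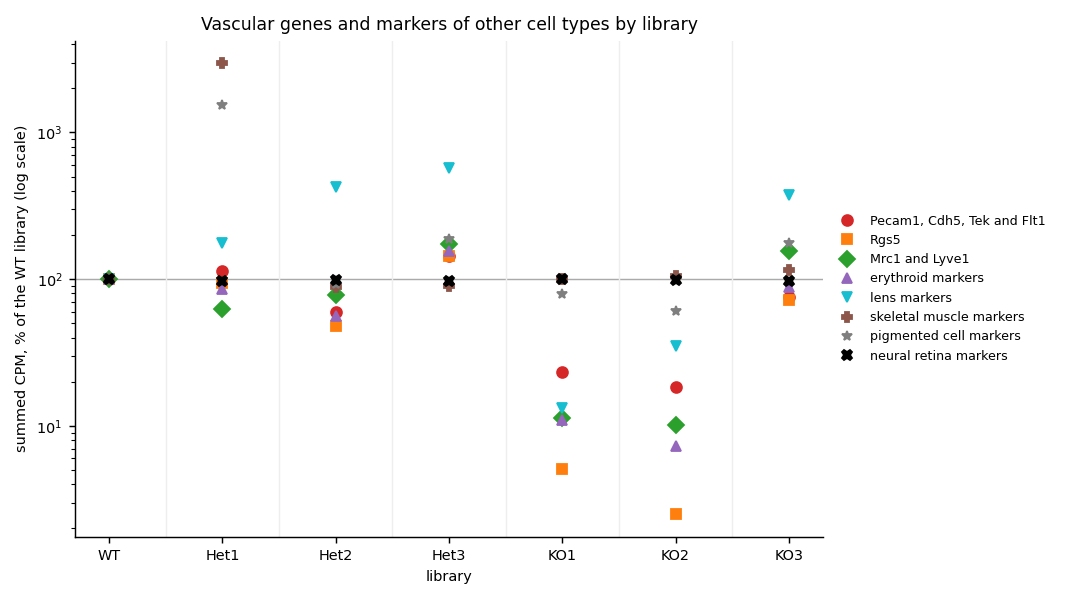
Summed CPM of each gene set in each library as a percentage of the WT library, on a logarithmic axis. The set of *Pecam1*, *Cdh5*, *Tek* and *Flt1* and that of *Mrc1* with *Lyve1* were chosen after their values were seen. The sum of *Pecam1*, *Cdh5*, *Tek* and *Flt1*, *Rgs5*, *Mrc1* with *Lyve1*, and the erythroid and lens markers are lowest in KO1 and KO2, the muscle and pigmented cell markers are highest in Het1, and the neural retina markers lie between 96.4% and 101% in all libraries.

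The summed *Pecam1*, *Cdh5*, *Tek* and *Flt1*, *Rgs5*, the erythroid and lens sums and *Mrc1* with *Lyve1* were each lowest in KO1 and KO2, and were not alike in the other libraries. Relative to WT, KO1 and KO2 held 23.2% and 18.4% of the summed *Pecam1*, *Cdh5*, *Tek* and *Flt1*, 5.05% and 2.51% of *Rgs5*, 11.03% and 7.34% of the erythroid sum, 13.3% and 35.2% of the lens sum, and 11.4% and 10.2% of *Mrc1* with *Lyve1*. KO3 held 75.6%, 71.8%, 87.8%, 375% and 157% of these. The sum of 4 endothelial genes and *Mrc1* with *Lyve1* were chosen after their values were seen. *Kdr* and *Cldn5*, left out of that sum, lay above WT in KO1, KO2 and KO3. The whole list of 12 macrophage and microglia markers held 120%, 162% and 159% of WT across KO1, KO2 and KO3. The lens sum in Het1, Het2 and Het3 was 176%, 423% and 577% of WT, against 114%, 60.2% and 143% for the 4 endothelial genes, and *Mrc1* with *Lyve1* was lowest among the Het libraries in Het1, where the endothelial sum was lowest in Het2. KO1 and KO2 were the pools of 4 retinas and KO3 was a pool of 6. The parts of pool size and of blood and lens content in the vascular values were not tested. In KO3, as in KO1 and KO2, *Kdr* and *Vegfa* lay above every Het library and *Pdgfrb* below. Among the KO libraries *Pdgfrb* was highest in KO3, at 19.2 CPM, and its call was lost without KO1 or KO2. A part of pool size or tissue content in these genes was not tested either.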

How the data were processed

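The deposited table holds counts per gene, which the authors made by aligning paired reads to GRCm38 (mm10) with STAR within rMATS-turbo and counting them with featureCounts, without normalization. It covers 7 libraries from 36 pooled retinas and has 0 other value columns. The kit was stranded, but whether counting used strand, and how it treated reads mapping to several places, is not given in the sources used here. The labels name TRIzol and the methods a column kit for RNA extraction. Totals ran from 120593979 to 171117305 counts. The p-values measure spread between pools, and replicate pairs differed by 13.0 to 49.4 times the counting variance, so none was a copy.

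Differences were tested with edgeR 4.0.16 (R 4.3.3): filterByExpr on genotype (20019 genes kept), TMM factors from 0.988 to 1.03, a mean per genotype over 7 libraries, glmQLFit and glmQLFTest for KO against Het, and Benjamini-Hochberg adjustment over all genes tested. The biological coefficient of variation was 21.5%. The script was checked on simulated counts. Exact permutation tests were two-sided (scipy 1.17.1, Python 3.11.15). Exon lengths and coordinates came from GENCODE M21 and promoter sequences from RefSeq. The alternatives were DESeq2 1.42.0, RLE and upper-quartile factors, adjusted p alone, a fit of 6 libraries without WT, a block for replicate number, no filter or a filter of at least 10 counts per library, and each Het and KO library left out. Leaving out libraries for the sums, and refitting the lists under each alternative, were chosen after seeing the data.

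The members and the 16 other lists were chosen with earlier results of these data known. The genes named are the 10 members, the 3 most abundant genes of each list and its called genes with the smallest p, up to 5, and the 10 genes most correlated with the endothelial members; exceptions are marked where they appear. The results for 2 of these genes are not reported here.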

Additional observations from a re-analysis of the deposited data

How the results depend on the processing

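*Vegfa* was called under all 14 alternatives and *Cldn5* under none, and no vascular gene reversed direction. The number of the 10 called ran from 1 to 8 when each library was left out, their median log2 fold change from -1.12 to -0.65, and the count over all genes from 386 to 1673. The *Ptbp1* log2 fold change ran from -3.70 to -2.56. The difference in the endothelial sum (KO minus Het) ran from 92.0 to 140 CPM, and that in the pericyte ratio from -0.0521 to -0.0374. Both measures include *Kdr*, which makes up most of the endothelial sum, and neither was recomputed without *Kdr* over left-out libraries. An adjusted p below 0.05 alone called 2221 genes, and DESeq2 called 2070, against 1445. Genotypes share replicate numbers. Over all genes tested, the deviations of same-numbered libraries correlated at -0.12, 0.256 and 0.019, and not every library correlated best with its own number. These values do not show that the numbers pair the samples. They cannot exclude a pairing for the vascular genes, because they cover all genes together. With the replicate number as a block, 7 of the 10 (*Pecam1*, *Cdh5*, *Flt1* and *Col4a1* added) and 1268 of 18433 genes in all were called, and the cause was not tested. The same block called 8 of 33 other endothelial genes lower, and 0 of 12 macrophage and microglia markers. Of the other endothelial genes, 1 of 33 was called lower in the fit without WT. With the filter of at least 10 counts it was 1 of 23. At 36 to 131 counts in KO1 and KO2, *Rgs5*, *Pecam1*, *Cdh5* and *Tek* are measured less precisely than *Kdr*. A single WT library, pools of unequal size and neighbouring tissue in Het1 limit what the comparison can separate.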

Other observations

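*Hba-a2* counts were 0.417 times those of *Hba-a1* in WT, 0.517, 0.483 and 0.367 times across Het1, Het2 and Het3, and 0.00169, 0.00248 and 0.0528 times across KO1, KO2 and KO3. Only 4 *Hba-a2* counts were found in KO1 and 4 in KO2. The genes are near-identical copies, so their split is uncertain, and the difference was not tested.

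*Mrc1* counts were 0.194 times those of *Csf1r* in WT, 0.122, 0.174 and 0.272 times across Het1, Het2 and Het3, 0.0155 and 0.0140 times in KO1 and KO2, and 0.244 times in KO3. *Lyve1* counts were 0.261 times those of *Csf1r* in WT, 0.151, 0.231 and 0.305 times across Het1, Het2 and Het3, 0.0220 and 0.0127 times in KO1 and KO2, and 0.223 times in KO3. Both macrophage genes were chosen after their values were seen.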
